A study of Xenopus laevis with 15 samples.

Results

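Whole Xenopus laevis embryos were sequenced after culture in 1 µM NRX204647 or in the vehicle, 0.1% ethanol, and the response of their transcripts to the 1 µM concentration is described here. The comparison used the 5 libraries of each of these groups, 10 of the 15 libraries of the study. The other 5 came from embryos in 10 nM NRX204647, a dose that the labels call selective for retinoic acid receptor gamma, while 1 µM is labelled as activating the alpha, beta and gamma receptors. Exposure ran from stage 6, a late cleavage stage, until stage 18, when the neural folds are closing. A dish of 25 embryos was divided at harvest into 5 aliquots of 5 embryos, and each aliquot became a library. The 5 libraries of a group thus match the yield of a single dish, treatment and dish cannot be told apart, and every p-value measures the spread between aliquots only. All groups came from eggs fertilised in vitro, and the labels give no allele or strain for the embryos. The RNA was amplified before sequencing and the reads kept no strand, so a gene and an antisense partner cannot be told apart. This frog carries many genes as near-identical pairs from an ancient genome doubling, and how reads were divided between such copies is not given in the sources used here.

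Levels are FPKM, which scale the fragments of a gene model by its length and by the mapped fragments of the library. The comparison took in each gene model whose FPKM averaged 1 or more across its 10 libraries, a level that 13321 of 45099 gene models (29.5%) reached. Only 316 of the 13321 (2.37%) carried a usable symbol, and these are the genes described by name. Of 27 tissue markers listed for a stage 18 embryo, 4 had a symbol and were tested. They were sox2 for the neural plate, sox9 for the neural crest, grhl3 for the epidermis and chrnd for muscle, and each was measured above 0 in all 10 libraries. In RNA from whole embryos, fewer cells of a type and less RNA per cell cannot be told apart.

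Retinoic acid is made from vitamin A by a retinol dehydrogenase and a retinaldehyde dehydrogenase, and it is cleared by Cyp26 enzymes. It acts through nuclear receptors that sit on DNA with RXR partners, hold corepressors when empty and recruit coactivators when a ligand binds. In frog embryos an excess of retinoid is known to reduce anterior structures and to shift hindbrain, crest and mesoderm patterning towards posterior fates, and the embryo lowers synthesis and raises breakdown in return.

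The libraries separated by treatment. Their correlation, across tested gene models on the log2(FPKM + 1) scale, had a median of 0.957 between 1 µM libraries, 0.933 between vehicle libraries and 0.843 between the groups. The first principal component held 56.1% of the variance, with scores from 29.6 to 43.3 for the 1 µM libraries and from -40.2 to -33.3 for the vehicle libraries. The second component, at 10.8%, set vehicle replicate 3 (35.2) apart from vehicle replicates 1 and 2 (-27.4 and -19.6). Relative depth, which could be read from the smallest increments of the FPKM values and is given as a share of the deepest library, was 0.839 ± 0.189 at 1 µM and 0.535 ± 0.259 with vehicle (SD, n = 5 each). That difference of 0.304 had an exact two-sided permutation p of 0.0714, where 0.00794 is the smallest p that 5 against 5 allows. Vehicle replicates 1, 2 and 3 all lay under 0.4 of the deepest library. A single gene model without a symbol took 20.5 ± 5.06% of all FPKM at 1 µM and 32.3 ± 8.07% with vehicle (exact permutation p = 0.0238). A share of summed FPKM also depends on gene model length and need not equal the share of fragments. Since FPKM is scaled by mapped fragments, a gene model that takes more of them can lower the other values. How far it did so was not measured, and its part in the results was not tested beyond the scalings given next.

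By limma with Benjamini-Hochberg adjustment, 6071 of the 13321 gene models (45.6%) passed an adjusted p of 0.05. Of these, 3880 (29.1%) were higher and 2191 (16.4%) lower at 1 µM than with vehicle. Most called changes were small on the log2(FPKM + 1) scale, which understates changes of genes at low levels. The median absolute log2 fold change of the called gene models was 0.605, and 1226 (9.2%) were called with a change of at least 1, 948 (7.12%) higher and 278 (2.09%) lower. Changes of at least 2 were called for 115 gene models that were higher and 38 that were lower. In 4298 gene models (32.3%) the 5 libraries at 1 µM did not overlap the 5 vehicle libraries, 2789 (20.9%) lying above and 1509 (11.3%) below. The share called followed the level, from 37.3% of the 4548 gene models with a mean of 1 to 2 FPKM to 71.1% of the 128 above 100 FPKM. In that lowest class the median gene model had 31 to 105 reads, depending on the library, by the same reading of increments.

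The split between higher and lower calls depended on the scaling. Of the calls on the deposited scale 63.9% were higher. Median-of-ratios scaling gave 51.7%, quantile normalization gave 45.4%, and a common total that left out the most abundant gene model gave 39.6%. The median log2 fold change of all tested gene models was 0.0902 as deposited, and 0.00434, -0.0417 and -0.0891 under those scalings. Small changes can therefore take either sign, as several genes named below did. Over all tested gene models, 25%, 22.1% and 19.7% were called higher under these scalings in that order, and 23.3%, 26.6% and 30.1% lower, and the counts of gene lists below under the other scalings stand in the same order. The 316 named genes comprised 98 that were higher, 54 lower and 164 not called, and their median log2 fold change was 0.0886. With the same scalings the counts were 82 and 75, 75 and 86, and 62 and 101. On the log2(FPKM + 1) scale no named gene changed by 2 or more, while 19 were higher and 5 lower by at least 1. That scale understates ratios of FPKM, most of all for genes at low levels.

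**Figure D1:**
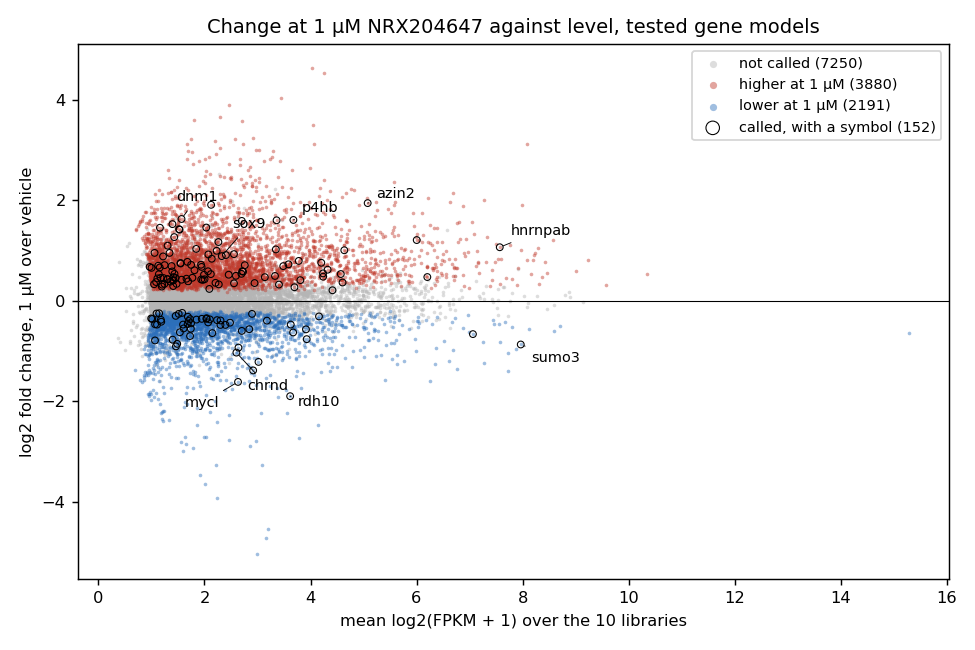
Log2 fold change (1 µM over vehicle, on the log2(FPKM + 1) scale) against the mean level of each of the 13321 tested gene models, with red points for the 3880 higher, blue for the 2191 lower and grey for those not called at a limma adjusted p of 0.05. Open circles mark the 152 called gene models with a symbol, which all lie between -2 and 2 while some without a symbol reach beyond 4.

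The gene of retinoic acid synthesis fell. Of the enzymes that make or break down retinoic acid, 1 was tested by name, rdh10, the retinol dehydrogenase that makes retinaldehyde from vitamin A. It measured 5.20, 5.22, 5.94, 5.08 and 5.34 FPKM in 1 µM replicates 1 to 5, against 26.6, 25.8, 18.8, 23.1 and 19.96 FPKM in vehicle replicates 1 to 5, and values below keep that replicate order. The treated libraries lay within 1 FPKM of each other, and every one was far below the lowest vehicle library. The level was 0.234 of that with vehicle. Its log2 fold change was -1.90 ± 0.11 (estimate ± SE, adjusted p = 2.01e-07 by limma), the largest decrease of a named gene on the log2(FPKM + 1) scale.

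Of 3 nuclear receptor and cofactor genes tested, 2 were higher and 1 lower, all without overlap between the groups and with those directions under each scaling. Among all tested gene models 29.1% were higher, 16.4% lower and 32.3% without overlap, and 3 genes are too few to set against these shares. The orphan receptor gene nr2f6, of the COUP-TF family, measured 3.88, 4.10, 4.01, 4.66 and 4.07 FPKM at 1 µM, against 2.47, 1.90, 2.05, 2.45 and 3.40 FPKM with vehicle. Every treated library exceeded the highest vehicle library, although the gap to vehicle replicate 5 was small, and the log2 fold change was 0.59 ± 0.11 (limma adjusted p = 0.00132). The gene med28 encodes a subunit of Mediator, the complex that links DNA-bound factors to RNA polymerase II. Its level was 4.97, 3.80, 3.56, 3.40 and 3.91 FPKM at 1 µM, against 1.78, 2.29, 1.91, 1.48 and 2.57 FPKM with vehicle, higher by 0.72 ± 0.12 on the log2 scale (limma adjusted p = 0.000512). The gene ncoa6 encodes a coactivator that nuclear receptors recruit when bound by ligand. It stood at 1.48, 1.15, 1.26, 1.46 and 1.35 FPKM at 1 µM, against 2.81, 2.68, 2.87, 2.25 and 2.44 FPKM with vehicle. All 5 treated libraries were clearly lower, with a log2 fold change of -0.63 ± 0.08 (adjusted p = 9.83e-05 by limma). A further cofactor of retinoic acid receptors, trim24, is also a ubiquitin ligase and was counted in that list. It had 0.940, 0.700, 0.803, 0.965 and 0.738 FPKM at 1 µM, against 1.80, 1.21, 1.39, 1.47 and 1.86 FPKM with vehicle, again with no overlap (log2 fold change -0.47 ± 0.10, limma adjusted p = 0.00248). The coactivator gene ncoa6 and the cofactor gene trim24 were thus lower, while nr2f6 and med28 were higher. The anteroposterior patterning list held 1 named gene model, irx5, which did not reach the filter.

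**Figure D2:**
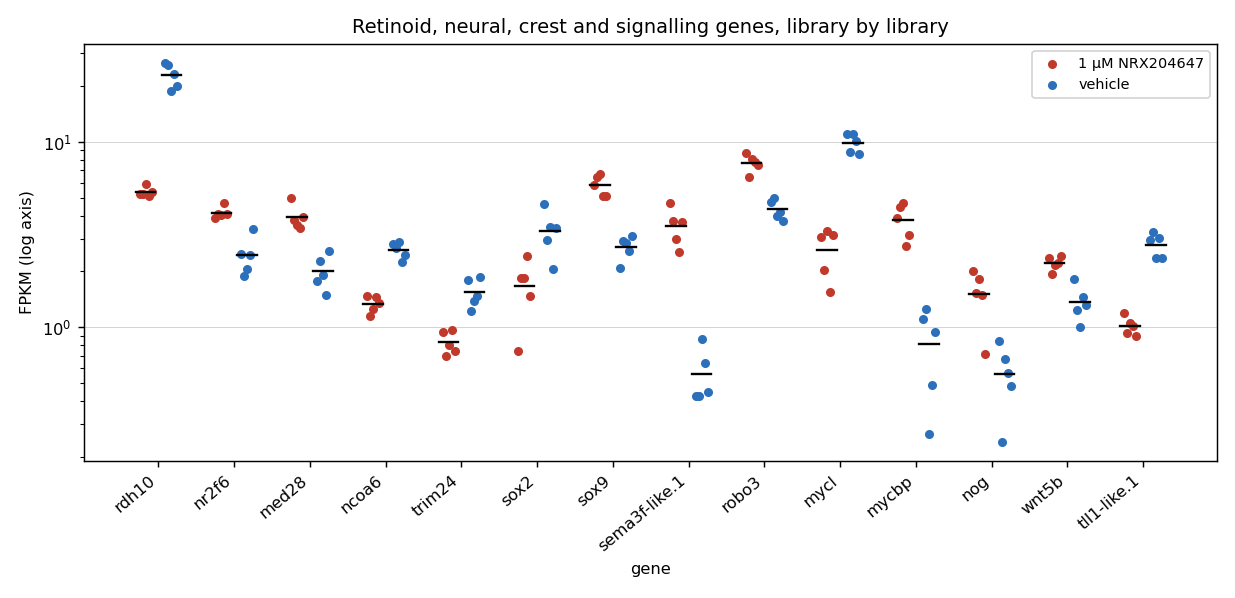
FPKM on a log axis for 14 genes of retinoid metabolism and receptors, the nervous system, the crest and signalling, with the 5 libraries at 1 µM (red) left of the 5 vehicle libraries (blue) and a bar at each group mean. For rdh10, ncoa6, trim24, mycl and tll1-like.1 all red points lie below the blue ones, for sox9, robo3 and mycbp above, and for sox2 and nog the groups overlap.

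Genes of the nervous system moved in both directions. Of 3 tested, the guidance genes sema3f-like.1 and robo3 were higher and sox2 lower, also under each scaling. Among all tested gene models 29.1% were higher and 16.4% lower. The gene sema3f-like.1 is related to semaphorin 3F, a secreted protein that repels axons and crest cells. It measured 4.65, 3.75, 2.98, 2.55 and 3.68 FPKM at 1 µM, against 0.425, 0.425, 0.865, 0.638 and 0.444 FPKM with vehicle. Every treated library was several times the highest vehicle library, with a log2 fold change of 1.53 ± 0.13 (adjusted p = 5.32e-06 by limma). The gene robo3 encodes a receptor of the Roundabout family, which steers axons at the midline. It had 8.68, 6.43, 8.12, 7.74 and 7.51 FPKM at 1 µM, against 4.74, 4.97, 3.97, 4.19 and 3.74 FPKM with vehicle. The groups were separate but closer together, at 0.71 ± 0.10 on the log2 scale (limma adjusted p = 0.000156). The gene sox2 maintains neural progenitors, and its level was 0.744, 1.84, 1.84, 2.40 and 1.48 FPKM at 1 µM, against 4.64, 2.95, 3.45, 2.06 and 3.42 FPKM with vehicle. Treated replicate 4 lay above vehicle replicate 4, so the groups overlapped, and treated replicate 1 was the lowest of all. The log2 fold change of sox2 was -0.70 ± 0.19 (limma adjusted p = 0.0115), and its values rested on 8 to 20 recovered reads per library at 1 µM and 10 to 31 with vehicle. Without the 3 vehicle libraries under 0.4 of the deepest library's depth it missed the threshold, at -0.50 (limma adjusted p = 0.158, in a range of 0.00231 to 0.158 over all settings).

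The neural crest list held 3 genes, of which sox9 is a crest marker and the others belong to the Myc network. The gene sox9 specifies neural crest and cartilage, and it measured 5.88, 6.46, 6.74, 5.13 and 5.09 FPKM at 1 µM, against 2.09, 2.91, 2.84, 2.56 and 3.11 FPKM with vehicle. The treated libraries were all above 5 FPKM and the vehicle libraries all near or below 3, with a log2 fold change of 0.89 ± 0.10 (adjusted p = 5.18e-05 by limma). The gene mycl encodes a member of the Myc family of growth regulators. Its values were 3.06, 2.04, 3.31, 1.56 and 3.13 FPKM at 1 µM, against 11.0, 8.85, 11.0, 10.0 and 8.59 FPKM with vehicle. Treated replicates 2 and 4 were the lowest, and none came near the vehicle libraries, with a log2 fold change of -1.61 ± 0.15 (adjusted p = 9.11e-06 by limma). The gene mycbp encodes a protein that binds c-Myc, and it moved the other way. It stood at 3.87, 4.46, 4.66, 2.75 and 3.16 FPKM at 1 µM, against 1.10, 1.26, 0.263, 0.489 and 0.943 FPKM with vehicle. All treated libraries were higher, with a log2 fold change of 1.42 ± 0.18 (adjusted p = 7.62e-05 by limma), on 2 to 16 recovered reads per vehicle library.

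Among 5 genes of the epidermis and of epithelial polarity, msn-like was higher, grhl3 lower and 3 did not pass. These counts were the same under each scaling, and 45.6% of all tested gene models were called as deposited. The gene grhl3 encodes the grainyhead-like factor that drives epidermal differentiation. It measured 15.3, 15.5, 16.3, 13.3 and 15.1 FPKM at 1 µM, against 19.1, 19.4, 17.3, 20.8 and 18.1 FPKM with vehicle. The groups were separate, with treated replicate 3 just below vehicle replicate 3, and the log2 fold change was -0.31 ± 0.08 (limma adjusted p = 0.0115). The gene msn-like is related to moesin, which ties the cell cortex to actin. It had 11.6, 10.4, 11.4, 11.7 and 9.73 FPKM at 1 µM, against 6.79, 9.24, 6.67, 7.12 and 7.78 FPKM with vehicle, without overlap and with a log2 fold change of 0.50 ± 0.10 (adjusted p = 0.00190 by limma). The polarity genes did not pass. For prkci, the atypical protein kinase C of the apical domain, the levels were 9.37, 8.78, 10.4, 11.7 and 11.6 FPKM at 1 µM, against 11.3, 9.72, 8.50, 7.95 and 8.17 FPKM with vehicle. Vehicle replicates 1 and 2 lay within the treated range and the other controls below it, the log2 fold change was 0.17 ± 0.12 (limma adjusted p = 0.256), and it fell below 0 with quantile normalization (-0.0029) and the common total (-0.058). The scaffold genes dlg5 and mpp6 had log2 fold changes of 0.10 ± 0.09 and 0.28 ± 0.11 (limma adjusted p = 0.375 and 0.0532), and that of dlg5 was also below 0 under these 2 scalings (-0.043 and -0.11).

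Muscle genes for a receptor subunit, a potassium channel and a Z-disc protein were lower, and 2 genes of the wider actomyosin system were higher. Of 7 tested, 3 were lower, 2 higher and 2 did not pass, where 16.4% of all tested gene models were lower and 29.1% higher, and the list median was -0.162 against 0.0902 for all tested gene models, below 0 under each scaling. Under the other scalings 1 was higher in each, and 3, 3 and 4 were lower. The gene chrnd encodes the delta subunit of the acetylcholine receptor at the neuromuscular junction, and it measured 3.42, 2.66, 3.81, 2.49 and 4.10 FPKM at 1 µM, against 10.9, 6.87, 7.76, 7.05 and 6.44 FPKM with vehicle. Vehicle replicate 1 was the highest, and all 5 treated libraries lay below the lowest vehicle library. For chrnd the log2 fold change was -1.03 ± 0.15 (limma adjusted p = 0.000231). Its partner chrng, the gamma subunit of the embryonic receptor, did not pass. It had 7.2, 6.21, 6.16, 3.87 and 4.71 FPKM at 1 µM, against 8.03, 5.91, 5.66, 7.32 and 4.97 FPKM with vehicle. These ranges overlapped over most of their length, with a log2 fold change of -0.16 ± 0.16 (adjusted p = 0.427 by limma). The gene kcnj2 encodes an inward rectifier potassium channel that sets the resting potential of muscle fibres. It measured 0.540, 0.540, 0.583, 0.648 and 0.667 FPKM at 1 µM, against 1.81, 1.82, 1.25, 2.16 and 1.80 FPKM with vehicle. Treated libraries were tightly grouped, all below vehicle replicate 3, the lowest of the controls, with a log2 fold change of -0.79 ± 0.10 (adjusted p = 9.20e-05 by limma). The gene ldb3-like.1 is related to a Z-disc protein that anchors actin filaments. Its level was 1.46, 0.901, 0.984, 0.654 and 1.18 FPKM at 1 µM, against 2.53, 2.02, 2.84, 2.31 and 2.59 FPKM with vehicle, at -0.77 ± 0.11 on the log2 scale (limma adjusted p = 0.000261) and without overlap.

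The muscle genes that were higher are expressed beyond skeletal muscle. The gene myl9 encodes a regulatory light chain of smooth muscle and non-muscle myosin. It stood at 27.4, 29.3, 30.2, 24.5 and 26.9 FPKM at 1 µM, against 20.4, 17.9, 16.8, 17.05 and 22.2 FPKM with vehicle. The treated libraries were all above the vehicle ones, with a log2 fold change of 0.53 ± 0.10 (adjusted p = 0.00137 by limma). The gene pdlim1 encodes an actin-associated PDZ and LIM protein of epithelia and muscle. It measured 26.8 ± 3.44 FPKM at 1 µM and 20.5 ± 1.67 FPKM with vehicle (SD, n = 5 each), with overlapping libraries and a log2 fold change of 0.36 ± 0.10 (adjusted p = 0.0141 by limma). Its call was lost with each other scaling (0.25, 0.10 and 0.12, adjusted p = 0.0536, 0.413 and 0.323 by limma) and in 3 further settings, in a range of 0.00708 to 0.413. The last member, mef2bnb, is a neighbour of a Mef2 gene and had a log2 fold change of 0.34 ± 0.15 (adjusted p = 0.0851 by limma).

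**Figure D3:**
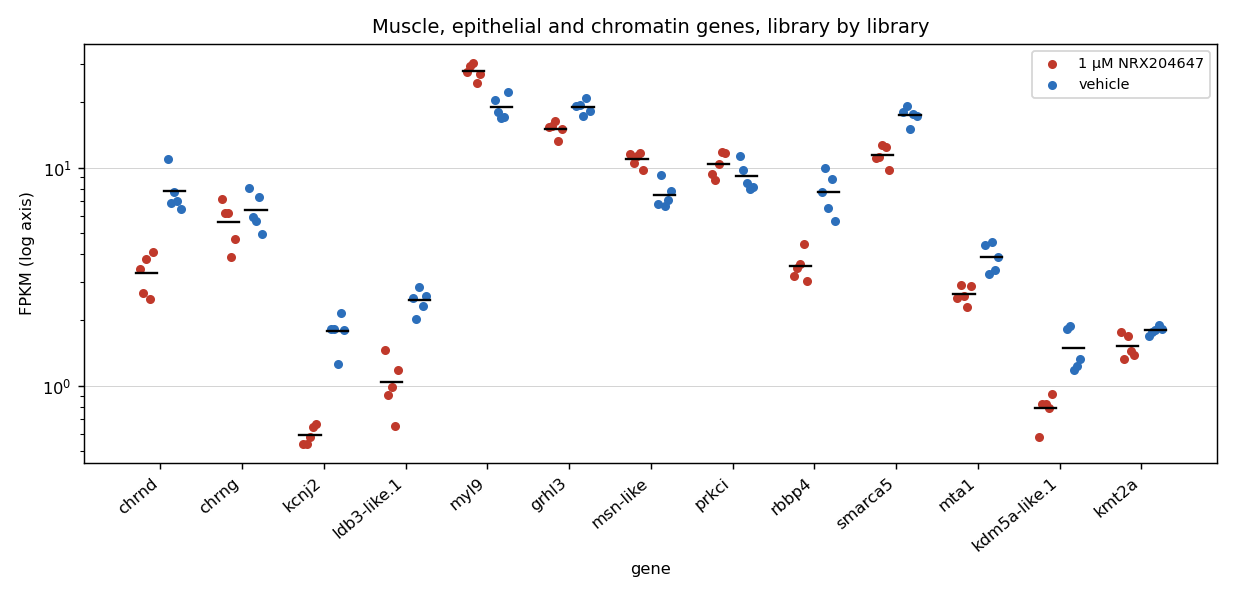
FPKM on a log axis for 13 muscle, epithelial and chromatin genes, with the 5 libraries at 1 µM (red) left of the 5 vehicle libraries (blue) and a bar at each group mean. The red points lie wholly below the blue ones for chrnd, kcnj2, ldb3-like.1, grhl3, rbbp4, smarca5, mta1 and kdm5a-like.1, wholly above for myl9 and msn-like, and among them for chrng, prkci and kmt2a.

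Of 9 genes matched to the growth factor pathways, 4 were higher, 1 lower and 4 did not pass, so that 5 of 9 were called against 45.6% of all tested gene models. With each of the other scalings there were 2 higher and 3 lower, and the list median of 0.167 fell below 0 with quantile normalization (-0.041) and the common total (-0.03). The gene nog encodes noggin, which binds and blocks Bmp ligands, and it measured 2.00, 1.53, 1.81, 1.5 and 0.719 FPKM at 1 µM, against 0.843, 0.241, 0.672, 0.562 and 0.481 FPKM with vehicle. Treated replicate 5 lay below vehicle replicate 1 and the rest were higher, with a log2 fold change of 0.67 ± 0.16 (adjusted p = 0.00555 by limma) on 3 to 18 recovered reads per vehicle library. The gene wnt5b encodes a Wnt ligand known for steering cell movements without beta-catenin. Its level was 2.35, 1.93, 2.16, 2.23 and 2.43 FPKM at 1 µM, against 1.81, 1.23, 1.00, 1.45 and 1.32 FPKM with vehicle. The groups were separate by a narrow margin, at 0.45 ± 0.10 on the log2 scale (limma adjusted p = 0.00316). The gene tll1-like.1 is related to the tolloid proteases, which cut the Bmp inhibitor chordin and collagen precursors. It stood at 1.19, 0.924, 1.06, 1.01 and 0.900 FPKM at 1 µM, against 2.96, 3.24, 2.35, 3.02 and 2.36 FPKM with vehicle. No treated library reached 1.2 FPKM and no vehicle library was below 2.3, a log2 fold change of -0.91 ± 0.09 (adjusted p = 1.69e-05 by limma).

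Receptors of these pathways did not pass as deposited. The Bmp receptor gene bmpr1a measured 2.92 ± 0.132 FPKM at 1 µM and 3.29 ± 0.451 FPKM with vehicle (SD, n = 5 each), a log2 fold change of -0.13 ± 0.08 (adjusted p = 0.243 by limma). The Wnt co-receptor gene lrp6 measured 2.52 ± 0.291 FPKM at 1 µM and 2.96 ± 0.112 FPKM with vehicle, at -0.17 ± 0.08 on the log2 scale (limma adjusted p = 0.0814). Under each of the other scalings bmpr1a (-0.21, -0.24 and -0.32) and lrp6 (-0.26, -0.28 and -0.36) were called lower. The insulin receptor gene insr and the planar polarity gene prickle3-like had log2 fold changes of -0.03 ± 0.09 and 0.17 ± 0.15 (limma adjusted p = 0.820 and 0.392). A p that misses the threshold does not show equal levels. The other members called higher were matched by name only, since ctnnbl1 encodes a spliceosome-associated protein and igf2bp3 an mRNA-binding protein. The call of ctnnbl1, at 0.35 ± 0.13 (limma adjusted p = 0.0469), was lost without any single library other than vehicle replicates 1 and 2 (adjusted p = 0.0514 to 0.108, limma) and with each other scaling, in a range of 0.00317 to 0.277.

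No chromatin gene of the list was higher. Of 10 tested, 5 were lower and 5 did not pass, with a list median of -0.26, against 0.0902 over all tested gene models and 16.4% of them called lower. With each other scaling 7 were lower and 0 higher, where 23.3%, 26.6% and 30.1% of all tested gene models were lower. The median was -0.352, -0.392 and -0.456, against 0.00434, -0.0417 and -0.0891 for all tested gene models. The list does not hold every chromatin or corepressor gene with a symbol, so its shares describe its members only. Among those outside it, ino80, hcfc1, bcor and gatad2a were lower as deposited, and jmjd3, actr8 and phip were not called. By contrast, gse1-like, zfpm1-like and cbfa2t3 were higher as deposited, but not with the common total. The lower calls of ino80 and gatad2a were lost without the shallow vehicle libraries (limma adjusted p = 0.12 and 0.297). That of gatad2a was also lost without treated replicate 2, 3 or 5, and that of ino80 with a replicate block (0.051). The gene rbbp4 encodes a histone-binding protein shared by the Polycomb, NuRD and Sin3 complexes. It measured 3.19, 3.46, 3.59, 4.44 and 3.03 FPKM at 1 µM, against 7.70, 9.98, 6.50, 8.87 and 5.71 FPKM with vehicle. The treated libraries clustered near their lower end with replicate 4 highest, still below vehicle replicate 5, and the log2 fold change was -0.93 ± 0.14 (limma adjusted p = 0.000292). The gene smarca5 encodes the ISWI ATPase that spaces nucleosomes. It had 11.1, 11.1, 12.7, 12.4 and 9.77 FPKM at 1 µM, against 18.0, 19.2, 14.97, 17.6 and 17.2 FPKM with vehicle. The groups did not overlap, and the log2 fold change was -0.57 ± 0.10 (limma adjusted p = 0.000664). The gene mta1 encodes a subunit of the NuRD complex, which removes acetyl groups from histones. Its values were 2.51, 2.89, 2.57, 2.30 and 2.85 FPKM at 1 µM, against 4.40, 3.26, 4.56, 3.39 and 3.87 FPKM with vehicle, with a gap between the groups and a log2 fold change of -0.43 ± 0.10 (adjusted p = 0.00373 by limma).

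The gene kdm5a-like.1 is related to a demethylase of histone H3 lysine 4. It stood at 0.579, 0.827, 0.826, 0.792 and 0.916 FPKM at 1 µM, against 1.81, 1.87, 1.18, 1.23 and 1.33 FPKM with vehicle, all treated libraries being lower (log2 fold change -0.47 ± 0.11, limma adjusted p = 0.00489). The fifth lower gene was mier3, related to corepressors that hold histone deacetylases. It measured 2.19, 2.21, 1.34, 1.87 and 2.11 FPKM at 1 µM, against 2.41, 3.28, 2.75, 2.20 and 3.29 FPKM with vehicle, and treated replicate 2 lay just above vehicle replicate 4. Its log2 fold change of -0.36 ± 0.12 (adjusted p = 0.0266 by limma) missed the threshold without treated replicate 3 or vehicle replicate 2 or 5 (adjusted p = 0.061, 0.0597 and 0.0646, limma) and without the shallow vehicle libraries (0.138), in a range of 0.00418 to 0.138. The demethylase genes kdm5c and phf8, the corepressor gene sin3b, the remodeller gene smarca2-like and the methyltransferase gene kmt2a did not pass. Their log2 fold changes were 0.15, -0.16, -0.05, 0.15 and -0.15, and those of kdm5c and smarca2-like fell below 0 with the common total (-0.056 and -0.043). The 2 further genes called lower under each other scaling were phf8 (-0.26, -0.32 and -0.37) and kmt2a (-0.23, -0.25 and -0.31).

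The mitochondrial and energy genes of the list were higher or did not pass as deposited. Of 12 tested, 8 were higher and 0 lower, where 29.1% of all tested gene models were higher, and the median was 0.562. The other scalings gave 8 higher and 0 lower, 8 and 1, and 7 and 1, where 25%, 22.1% and 19.7% of all tested gene models were higher. The list medians were 0.472, 0.418 and 0.374, against 0.00434, -0.0417 and -0.0891 for all tested gene models. A gene length correction left 6 higher and 0 lower, where 23.3% of the gene models it covered were higher. The list does not hold every mitochondrial gene with a symbol, so its share called higher describes its members only. Outside it, fis1, clpp, ghitm, hsd17b10, spg7, sirt5 and pdp2 were not called, while glud1, ethe1 and afg3l1p were higher. The call of afg3l1p was lost with quantile normalization and the common total (limma adjusted p = 0.095 and 0.171). That of ethe1 was lost with all groups in 1 fit (0.0585). The gene usmg5 encodes a small subunit of the ATP synthase. It measured 25.7, 18.4, 14.2, 13.1 and 15.5 FPKM at 1 µM, against 8.0, 2.49, 2.78, 5.82 and 7.78 FPKM with vehicle. The spread was wide in both groups, with treated replicate 1 highest and vehicle replicates 2 and 3 lowest, and there was no overlap. For usmg5 the log2 fold change was 1.60 ± 0.29 (limma adjusted p = 0.00104), on 3 to 25 recovered reads per vehicle library. The gene cox7a2 encodes a subunit of cytochrome c oxidase, the last enzyme of the respiratory chain. It had 90.4, 117, 89.1, 82.0 and 109 FPKM at 1 µM, against 52.9, 52.6, 30.8, 32.8 and 42.0 FPKM with vehicle. Vehicle replicates 3 and 4 were the lowest and all treated libraries were above 80 FPKM, a log2 fold change of 1.21 ± 0.17 (adjusted p = 0.000187 by limma). The gene ak3 encodes the GTP-dependent adenylate kinase of the mitochondrial matrix. Its level was 2.97, 2.99, 2.34, 2.93 and 2.33 FPKM at 1 µM, against 0.142, 0.812, 0.544, 0.189 and 0.182 FPKM with vehicle. The vehicle values came from only 1 to 5 recovered reads per library and the treated values from 31 to 59, with a log2 fold change of 1.45 ± 0.14 (adjusted p = 1.18e-05 by limma).

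The gene vdac2 encodes a channel for metabolites in the outer mitochondrial membrane, and it measured 13.5, 12.98, 14.5, 11.9 and 13.4 FPKM at 1 µM, against 10.2, 8.15, 6.53, 8.43 and 6.36 FPKM with vehicle. The groups were separate, at 0.69 ± 0.12 on the log2 scale (limma adjusted p = 0.000746). The gene tomm20 encodes a receptor for proteins that are imported into mitochondria. It stood at 1.91, 1.81, 1.84, 1.85 and 1.90 FPKM at 1 µM, against 1.03, 1.10, 0.974, 1.31 and 1.20 FPKM with vehicle, a narrow spread in the treated libraries and no overlap (log2 fold change 0.43 ± 0.07, limma adjusted p = 0.000745). The gene gadd45gip1 encodes a protein of the mitochondrial ribosome. It had 3.79, 3.47, 2.93, 4.20 and 1.94 FPKM at 1 µM, against 0.789, 1.5, 1.76, 1.64 and 1.69 FPKM with vehicle, where replicate 1 was the lowest by far. Its log2 fold change of 0.78 ± 0.17 (adjusted p = 0.00302 by limma) was 0.44 after a gene length correction (adjusted p = 0.0623, in a range of 0.000696 to 0.0623). The others called higher were lactb2 and enoph1, at 0.39 and 0.70. The call of lactb2 was lost with the common total (0.22, limma adjusted p = 0.104), a gene length correction (0.13, 0.33) and voom (0.44, 0.103). The enoph1 enzyme belongs to methionine salvage and is not a mitochondrial protein. Not called were dlat of the pyruvate dehydrogenase complex at -0.25, the complex I subunit gene ndufa13 at -0.0048, and the carrier genes slc25a11 and slc25a25-like at 0.26 and 0.07. Of these, dlat was called lower with quantile normalization and the common total (-0.41 and -0.38), and the sign of slc25a25-like changed with these scalings and with other settings.

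Of 13 genes of the secretory pathway, 9 were higher, 0 lower and 4 not called, where 29.1% of all tested gene models were higher and 16.4% lower, and the list median was 0.473. Under the other scalings 7, 6 and 6 were higher and 2 lower in each, with medians of 0.363, 0.302 and 0.246. A gene length correction left 4 higher and 2 lower, with a median of 0.321, where 23.3% of the gene models it covered were higher and 23.6% lower. The list does not hold every secretory gene with a symbol, so its shares describe its members only. Among those outside it, asna1 was lower, tram1, dolk-like, dolpp1 and wdr83os were not called, and yipf6 and trappc2l were higher. The call of asna1 was lost without the shallow vehicle libraries (limma adjusted p = 0.299) and without several single libraries. That of yipf6 was lost with the common total (0.0591), and that of trappc2l after a gene length correction (0.0783). The gene p4hb encodes protein disulfide isomerase, which forms disulfide bonds in the endoplasmic reticulum. It measured 27.2, 24.5, 25.9, 15.8 and 16.2 FPKM at 1 µM, against 5.58, 6.84, 5.61, 7.37 and 6.38 FPKM with vehicle. Treated replicates 4 and 5 were lower than the other treated libraries, yet far above every vehicle library, with a log2 fold change of 1.61 ± 0.16 (adjusted p = 1.62e-05 by limma). The gene dpm2 encodes a subunit of the synthase that supplies dolichol-linked mannose for glycosylation. It had 4.18, 4.34, 3.78, 3.01 and 3.36 FPKM at 1 µM, against 1.13, 0.646, 0.812, 0.754 and 0.484 FPKM with vehicle. No libraries overlapped, the log2 fold change was 1.43 ± 0.12 (limma adjusted p = 3.05e-06), and the vehicle values rested on 2 to 6 recovered reads. The gene dad1 encodes a subunit of the oligosaccharyltransferase that attaches sugars to new proteins. It stood at 7.06, 7.06, 6.33, 4.55 and 6.32 FPKM at 1 µM, against 0.671, 3.84, 2.57, 2.04 and 2.83 FPKM with vehicle. Vehicle replicate 1 was the lowest and the groups were separate, at 1.17 ± 0.24 on the log2 scale (limma adjusted p = 0.00228).

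The gene tmed10 encodes a cargo receptor between the endoplasmic reticulum and the Golgi. It measured 22.9, 21.5, 23.6, 23.2 and 23.6 FPKM at 1 µM, against 16.9, 21.3, 8.15, 13.3 and 9.97 FPKM with vehicle. The treated libraries were close together, and vehicle replicate 2 nearly reached them while replicate 3 was lowest. The log2 fold change of tmed10 was 0.76 ± 0.21 (limma adjusted p = 0.0114), and 0.46 after a gene length correction (adjusted p = 0.0646, in a range of 0.000798 to 0.0646). The gene srp72, for a subunit of the particle that targets new proteins to the endoplasmic reticulum, measured 86.0 ± 6.33 FPKM at 1 µM and 62.4 ± 11.3 FPKM with vehicle (SD, n = 5 each). Its log2 fold change of 0.47 ± 0.13 (adjusted p = 0.0113 by limma) fell to 0.17 with quantile normalization (adjusted p = 0.160) and 0.22 with the common total (0.0513), in a range of 0.00160 to 0.160. Other members called higher were weaker too. The calls of cope (0.36, 0.30 and 0.25) and rpn2 (0.22, 0.15 and 0.095) were lost with each other scaling and without several single libraries. Those of dnajc25 and rab19 were lost after a gene length correction (0.25 and 0.36). Among members that did not pass, ostc, another oligosaccharyltransferase subunit, had 0.33 ± 0.13, and the GTPase gene arf4 had -0.45 ± 0.18 (limma adjusted p = 0.0566 and 0.0607). Under each other scaling arf4 was called lower (-0.56, -0.69 and -0.69).

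**Figure D4:**
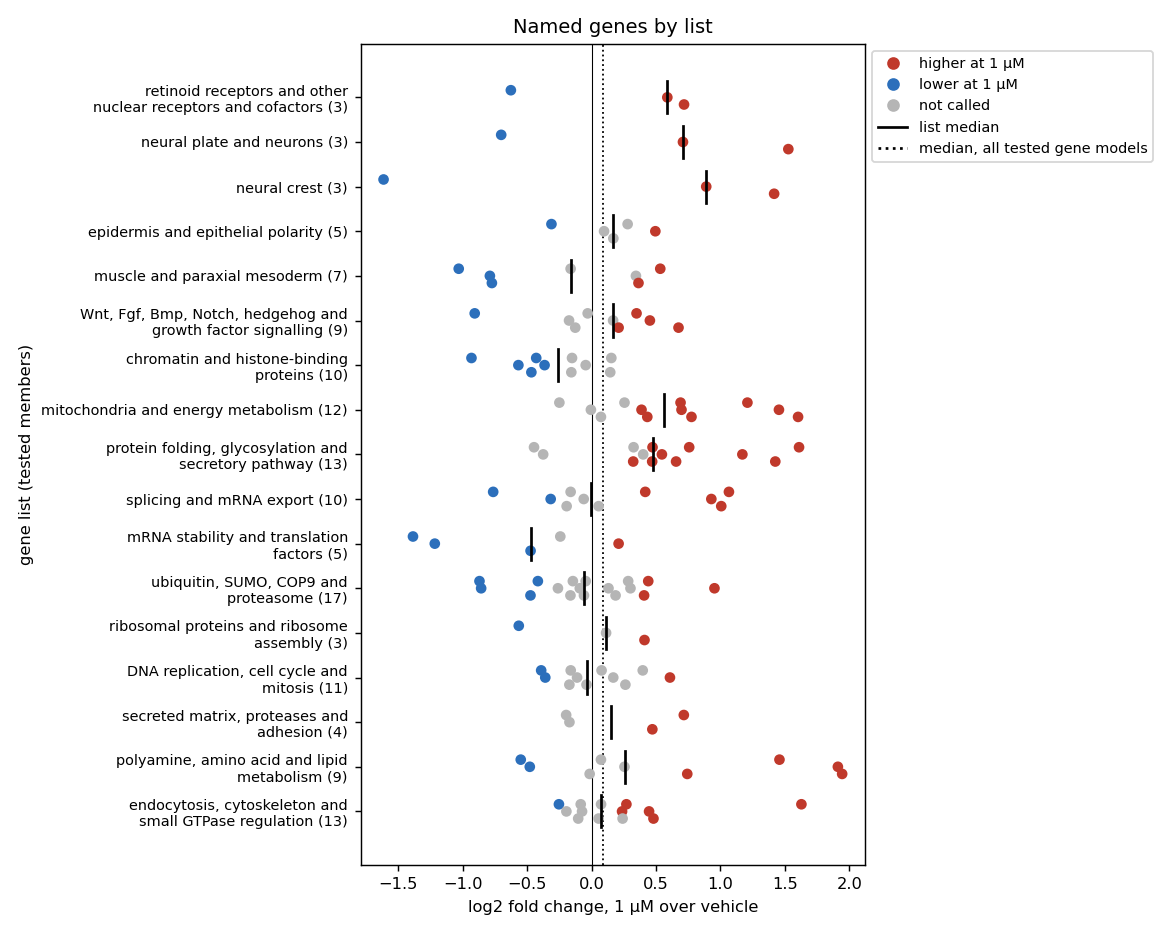
Log2 fold change (1 µM over vehicle) of each tested named gene in 17 gene lists, with red for genes called higher, blue for lower and grey for not called, a black bar at each list median and a dotted line at 0.0902, the median of all tested gene models. The chromatin list has 0 genes called higher, also under the other scalings, and the mitochondrial and secretory lists have 0 called lower as deposited, but 0 to 1 and 2 with other scalings.

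RNA-processing genes moved in both directions. Of 10 splicing and mRNA export genes, 4 were higher, 2 lower and 4 not called, near the 29.1% higher and 16.4% lower of all tested gene models, with a median of -0.00256. The other scalings gave 4 higher and 3 lower, 4 and 3, and 3 and 5. The match was by name and took in ranbp9, called higher, and the protein import gene ipo11, called lower. Neither is itself a splicing or mRNA export gene. The gene hnrnpab encodes an abundant ribonucleoprotein that binds new transcripts. It measured 320.4, 324, 285, 223 and 232 FPKM at 1 µM, against 161, 164, 89.0, 129 and 123 FPKM with vehicle. Treated replicates 4 and 5 and vehicle replicate 3 were the low ones of their groups, which did not overlap. The log2 fold change of hnrnpab was 1.07 ± 0.18 (limma adjusted p = 0.000608). The gene alyref encodes the adaptor that hands spliced mRNA to the export machinery. It had 34.5, 39.3, 34.1, 29.1 and 35.1 FPKM at 1 µM, against 19.4, 21.4, 11.0, 16.6 and 16.3 FPKM with vehicle, again with vehicle replicate 3 lowest and no overlap (log2 fold change 1.01 ± 0.16, limma adjusted p = 0.000379). The gene ranbp9 encodes a scaffold that binds the nuclear GTPase Ran. Its level was 9.5, 7.27, 7.44, 6.31 and 5.59 FPKM at 1 µM, against 3.72, 3.69, 2.38, 3.21 and 3.47 FPKM with vehicle, higher in every treated library (log2 fold change 0.93 ± 0.14, limma adjusted p = 0.000237). The opposite held for srsf6, a serine and arginine-rich splicing factor. It stood at 11.6, 10.9, 10.1, 9.75 and 11.2 FPKM at 1 µM, against 18.3, 23.0, 17.4, 19.7 and 16.3 FPKM with vehicle. Vehicle replicate 2 was the highest, and no treated library came near the vehicle range, with a log2 fold change of -0.76 ± 0.10 (adjusted p = 0.000126 by limma). The abundant hnrnpa0 and prpf19 did not pass, at -0.16 ± 0.13 and -0.19 ± 0.10 (limma adjusted p = 0.342 and 0.133).

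Of 5 genes of mRNA stability and translation, 3 were lower, 1 higher and 1 not called, where 16.4% of all tested gene models were lower. With each other scaling 4 were lower and 0 higher, where 23.3%, 26.6% and 30.1% of all tested gene models were lower. The match was by name, so these shares describe the listed members only. Among RNA-decay genes outside the list, eri1 was higher (0.58, limma adjusted p = 0.000883) and dis3l2-like.1 was not called. The gene zfp36l1 encodes a zinc finger protein that binds AU-rich elements and promotes decay of the mRNA. It measured 3.76, 4.06, 3.83, 5.44 and 4.68 FPKM at 1 µM, against 10.6, 11.2, 10.1, 12.5 and 12.5 FPKM with vehicle. All vehicle libraries were above 10 FPKM and no treated library reached 6, a log2 fold change of -1.22 ± 0.11 (adjusted p = 5.06e-06 by limma). The zinc finger gene zcchc24 had 3.98, 4.37, 2.46, 4.08 and 3.76 FPKM at 1 µM, against 14.7, 9.80, 12.9, 8.17 and 11.5 FPKM with vehicle. The vehicle values were spread more widely, and all of them were above the treated ones (log2 fold change -1.38 ± 0.16, limma adjusted p = 4.89e-05). The gene gigyf1 encodes a partner of a translational repressor of capped mRNAs. It measured 1.04, 1.13, 1.66, 2.11 and 2.10 FPKM at 1 µM, against 2.58, 3.18, 1.93, 2.77 and 2.47 FPKM with vehicle, with treated replicates 4 and 5 above vehicle replicate 3. Its log2 fold change of -0.47 ± 0.14 (adjusted p = 0.0197 by limma) missed the threshold without treated replicate 2 (-0.41, adjusted p = 0.0504) and without the shallow vehicle libraries (0.0770), in a range of 0.00161 to 0.0770. The gene igf2bp3 had 21.6, 21.3, 21.6, 23.0 and 22.3 FPKM at 1 µM, against 19.0, 19.3, 19.3, 18.6 and 18.0 FPKM with vehicle. These tight groups did not overlap, but the change of 0.21 ± 0.07 (limma adjusted p = 0.0292) was -0.041 with quantile normalization and -0.03 with the common total. It also missed the threshold without treated replicate 3, 4 or 5 or vehicle replicate 4 or 5 (limma adjusted p = 0.0545 to 0.0719, in a range of 0.0129 to 0.792). The RNA helicase gene ddx6, of mRNA storage and decay bodies, had -0.24 ± 0.12 (limma adjusted p = 0.109), and it was the fourth gene called lower under the other scalings (-0.35, -0.43 and -0.47).

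Of 17 genes of the ubiquitin, SUMO and COP9 systems, 3 were higher, 4 lower and 10 not called, so that 7 of 17 were called, near the 45.6% of all tested gene models. With the other scalings the counts were 3 higher and 6 lower, 2 and 7, and 1 and 8. The gene sumo3 encodes a ubiquitin-like protein that is attached to transcription factors and chromatin proteins, and it was the most abundant called gene with a symbol. It measured 138, 178, 237, 196 and 185 FPKM at 1 µM, against 423, 336, 314, 316 and 307 FPKM with vehicle. Vehicle replicate 1 stood above the other vehicle libraries, and all treated libraries were below 240 FPKM. For sumo3 the log2 fold change was -0.87 ± 0.14 (limma adjusted p = 0.000574). The gene cops6-like is related to a subunit of the COP9 signalosome, which switches off cullin ubiquitin ligases. It had 0.675, 0.953, 0.953, 1.78 and 1.20 FPKM at 1 µM, against 2.41, 5.19, 2.05, 2.26 and 2.63 FPKM with vehicle. Vehicle replicate 2 was well above the rest of its group, and the groups did not overlap (log2 fold change -0.86 ± 0.20, limma adjusted p = 0.00441). The deubiquitinase gene usp20 rose. Its values were 3.02, 2.56, 2.38, 2.36 and 2.36 FPKM at 1 µM, against 0.764, 0.990, 0.756, 0.781 and 0.829 FPKM with vehicle. Both groups were tight and wide apart, with a log2 fold change of 0.95 ± 0.08 (adjusted p = 5.02e-06 by limma). The ligase gene huwe1, the most abundant member that did not pass, had -0.06 ± 0.08 (limma adjusted p = 0.578), and it was called lower with quantile normalization and the common total (-0.23 and -0.29).

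Of 3 ribosome genes, 1 was higher, 1 lower and 1 not called, where 29.1% of all tested gene models were higher and 16.4% lower. The nucleolar assembly factor gene nol6 fell, with 5.42, 4.97, 5.28, 4.09 and 4.88 FPKM at 1 µM, against 8.03, 6.74, 8.20, 7.95 and 7.84 FPKM with vehicle. All treated libraries were below vehicle replicate 2, the lowest of its group (log2 fold change -0.56 ± 0.09, limma adjusted p = 0.000376). The ribosomal protein gene rps25 had 16, 17.1, 14.4, 13.8 and 14.6 FPKM at 1 µM, against 10.4, 10.4, 11.2, 11.9 and 12.04 FPKM with vehicle. Without overlap it was higher by 0.41 ± 0.09 (limma adjusted p = 0.00258), but not with quantile normalization (0.22, adjusted p = 0.0908) or the common total (0.18, 0.144), in a range of 0.00141 to 0.144. The ribonucleoprotein gene nop56 did not pass, at 0.11 ± 0.12 (limma adjusted p = 0.481), and was below 0 with the other scalings (-0.001, -0.13 and -0.13).

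Of 11 genes matched to the cell cycle list, 1 was higher, 2 lower and 8 not called, against 45.6% called among all tested gene models. These counts of higher and lower held under each other scaling. The match was by name, so the share called describes these members and not the cell cycle. It took in the transport kinesin gene kif1c and the transcription kinase gene cdk9. It left out ttk and mybl2, both called lower, and wapal and mau2, which were not called. The gene birc5.2 encodes survivin, which serves the chromosomal passenger complex in mitosis. It measured 3.75, 3.56, 3.57, 2.62 and 3.28 FPKM at 1 µM, against 1.96, 2.62, 1.57, 1.82 and 1.40 FPKM with vehicle. Treated replicate 4 equalled vehicle replicate 2 to 3 digits and the others were higher (log2 fold change 0.61 ± 0.12, limma adjusted p = 0.00176). The kinase of the same complex, aurkb, had 1.97, 1.77, 2.17, 3.42 and 3.00 FPKM at 1 µM, against 3.66, 2.93, 3.34, 3.40 and 3.55 FPKM with vehicle. Treated replicates 4 and 5 lay within the vehicle range and the rest below it. Its log2 fold change of -0.36 ± 0.13 (adjusted p = 0.0410 by limma) missed the threshold without treated replicate 1, 2 or 3 or vehicle replicate 1, 3, 4 or 5 (adjusted p = 0.0610 to 0.0986), in a range of 0.00781 to 0.139. The gene mcm7 encodes a subunit of the replicative helicase. It measured 4.6, 3.09, 3.51, 2.79 and 2.79 FPKM at 1 µM, against 4.56, 4.92, 5.31, 4.78 and 3.80 FPKM with vehicle, with treated replicate 1 inside the vehicle range. The log2 fold change of mcm7 was -0.39 ± 0.12 (limma adjusted p = 0.0213), and it missed the threshold without treated replicate 5 (-0.34, adjusted p = 0.0527) and without the shallow vehicle libraries (-0.29, 0.216), in a range of 0.00158 to 0.216.

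Outside the cell, 2 of 4 matrix and adhesion genes were higher, and 2 did not pass, where 29.1% of all tested gene models were higher and 45.6% called. With the other scalings 2, 2 and 1 were higher and 2 lower in each. The gene ctgf encodes a secreted matricellular protein that modulates growth factors. It measured 2.01, 3.22, 4.63, 3.91 and 3.21 FPKM at 1 µM, against 1.91, 2.01, 1.25, 1.29 and 1.74 FPKM with vehicle. Treated replicate 1 equalled vehicle replicate 2 to 3 digits and the others were higher (log2 fold change 0.72 ± 0.16, limma adjusted p = 0.00361). The proteoglycan gene bgn had 2.17 ± 0.485 FPKM at 1 µM and 1.28 ± 0.326 FPKM with vehicle (SD, n = 5 each), and its libraries overlapped. Its log2 fold change of 0.47 ± 0.13 (adjusted p = 0.0116 by limma) missed the threshold with the common total (0.31, adjusted p = 0.0815) and after a length correction (0.33, 0.0701), in a range of 0.00285 to 0.0815. The elastin-interface gene emilin3 and the muscle cadherin gene cdh15 had -0.17 ± 0.09 and -0.20 ± 0.10 (limma adjusted p = 0.140 and 0.137).

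On the log2(FPKM + 1) scale the largest increase of a named gene was that of azin2. The ratio of mean FPKM was larger for some genes at lower levels, such as dnm1, sema3f-like.1 and stard8-like. Of 9 genes of polyamine, amino acid and lipid metabolism, 4 were higher, 2 lower and 3 not called, where 29.1% of all tested gene models were higher and 16.4% lower, with the same list counts under each other scaling. The gene azin2 encodes an antizyme inhibitor, which protects the key enzyme of polyamine synthesis from degradation. It measured 79.8, 62.5, 73.9, 52.0 and 61.5 FPKM at 1 µM, against 20.4, 14.6, 14.4, 16.7 and 15.7 FPKM with vehicle. The lowest treated library was far above vehicle replicate 1, the highest control, at 4.03-fold between the means and a log2 fold change of 1.94 ± 0.13 (adjusted p = 9.79e-07 by limma). The gene akr1c2 encodes an aldo-keto reductase, a family that reduces steroids and retinaldehyde among other carbonyls. It had 5.63, 8.63, 6.15, 4.95 and 4.30 FPKM at 1 µM, against 1.27, 2.67, 1.02, 1.27 and 1.41 FPKM with vehicle. Replicate 2 was the highest of each group, and the groups did not overlap (log2 fold change 1.46 ± 0.19, limma adjusted p = 9.10e-05). The gene slc27a4 encodes a transporter of fatty acids. Its level was 2.95, 2.14, 2.91, 3.10 and 2.91 FPKM at 1 µM, against 1.72, 1.63, 0.691, 1.33 and 1.10 FPKM with vehicle, with treated replicate 2 the lowest of its group and still above every vehicle library (log2 fold change 0.74 ± 0.13, limma adjusted p = 0.00103). The fourth member called higher, stard8-like, was matched by name and is related to a protein with a lipid-binding domain. It stood at 8.23, 7.48, 8.75, 6.87 and 6.21 FPKM at 1 µM, against 1.91, 1.3, 1.05, 1.02 and 1.08 FPKM with vehicle, several times higher in every library (log2 fold change 1.91 ± 0.12, limma adjusted p = 5.27e-07).

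The lower members were transporters. The gene slc44a2 encodes a choline transporter-like protein, with 1.5, 1.52, 1.29, 1.68 and 1.62 FPKM at 1 µM, against 2.56, 2.83, 2.65, 2.66 and 2.72 FPKM with vehicle. Both groups were tight and apart, at -0.55 ± 0.07 on the log2 scale (limma adjusted p = 0.000102). The gene slc7a5 encodes a transporter of large neutral amino acids. It measured 2.94, 3.07, 3.13, 4.88 and 3.51 FPKM at 1 µM, against 6.23, 4.26, 4.56, 5.64 and 5.58 FPKM with vehicle, where treated replicate 4 overlapped the vehicle range (log2 fold change -0.48 ± 0.13, limma adjusted p = 0.0109).

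Of 13 genes of endocytosis, the cytoskeleton and small GTPases, 5 were higher, 1 lower and 7 not called, so that 6 of 13 were called, as were 45.6% of all tested gene models. With the other scalings the counts were 3 higher and 1 lower, 3 and 2, and 3 and 3. The gene dnm1 encodes the dynamin that pinches vesicles from the membrane, best known at synapses. It measured 4.42, 3.74, 4.46, 4.29 and 4.17 FPKM at 1 µM, against 0.478, 1.02, 0.610, 0.709 and 0.655 FPKM with vehicle. Vehicle replicate 2 was the highest of the controls and still far below the lowest treated library, with a log2 fold change of 1.63 ± 0.09 (adjusted p = 2.23e-07 by limma). Its relative dnm2, the dynamin found in most cells, had 1.17 ± 0.127 FPKM at 1 µM and 1.5 ± 0.294 FPKM with vehicle (SD, n = 5 each) and did not pass, at -0.19 ± 0.10 (limma adjusted p = 0.126). The tubulin gene tubb4a stood at 22.3, 20.6, 20.7, 20.8 and 22.1 FPKM at 1 µM, against 15.97, 17.7, 14.8, 14.5 and 12.3 FPKM with vehicle. All treated libraries were above the vehicle range (log2 fold change 0.48 ± 0.10, limma adjusted p = 0.00200). The autophagy gene map1lc3b, for a protein of the autophagosome membrane, had 0.45 ± 0.13 (limma adjusted p = 0.0171). The spectrin gene sptan1, for a protein of the membrane skeleton, had 0.27 ± 0.09 (limma adjusted p = 0.0235) and missed the threshold with each other scaling, without treated replicate 1 or 3 and without vehicle replicate 5. Those adjusted p-values (limma) were 0.0839, 0.359 and 0.688 with the scalings, and 0.0534, 0.0557 and 0.0556 without those libraries, in a range of 0.0159 to 0.688.

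Genes outside the lists that were among the 20 largest separated changes in a direction included cpe, for a carboxypeptidase that trims peptide hormones. It measured 3.20, 2.31, 2.98, 4.45 and 3.25 FPKM at 1 µM, against 1.05, 0.863, 0.389, 0.594 and 0.870 FPKM with vehicle. The groups were far apart, with a log2 fold change of 1.27 ± 0.14 (adjusted p = 3.85e-05 by limma). The gene b3gnt7 encodes a glycosyltransferase that extends sugar chains. It had 13.8, 14.6, 13.6, 13.1 and 12.4 FPKM at 1 µM, against 8.12, 7.23, 3.87, 5.82 and 6.41 FPKM with vehicle, with no overlap (log2 fold change 1.02 ± 0.15, limma adjusted p = 0.000230). The gene cerk encodes ceramide kinase, and its level was 5.25, 4.90, 5.64, 6.45 and 6.00 FPKM at 1 µM, against 3.26, 3.00, 1.14, 2.46 and 2.20 FPKM with vehicle. Every treated library was higher, at 1.00 ± 0.17 on the log2 scale (limma adjusted p = 0.000610). The phosphatase gene ntpcr and manbal-like also rose, by 1.10 ± 0.20 and 1.03 ± 0.20 (limma adjusted p = 0.000912 and 0.00165). Decreases included ttk, the kinase of the spindle checkpoint, with 4.75, 4.34, 3.72, 4.76 and 4.0 FPKM at 1 µM, against 6.40, 7.96, 6.58, 7.21 and 7.03 FPKM with vehicle. All treated libraries were lower (log2 fold change -0.60 ± 0.09, limma adjusted p = 0.000251). The nuclear import gene tnpo2-like, zswim6 and ubap2-like were lower, with log2 fold changes of -0.64 ± 0.13, -0.55 ± 0.07 and -0.63 ± 0.07 (limma adjusted p = 0.00206, 6.85e-05 and 4.84e-05). Of the 5 most abundant named genes, post was also lower, with 103, 112, 109, 85.0 and 121 FPKM at 1 µM, against 256, 225, 89.5, 159.9 and 158 FPKM with vehicle. Vehicle replicate 3 lay within the treated range, and the call (-0.66 ± 0.24, limma adjusted p = 0.0431) was lost without any single library other than that one (adjusted p = 0.0524 to 0.0954), in a range of 0.00149 to 0.0954.

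Larger changes were found among gene models without a symbol. Xelaev18034594m.g measured 73.2, 79.4, 75.6, 79.6 and 94.2 FPKM at 1 µM, against 2.15, 2.04, 2.41, 2.49 and 2.35 FPKM with vehicle. The means of the groups were 35.1-fold apart, with a log2 fold change of 4.63 ± 0.09 (adjusted p = 1.40e-10 by limma). Xelaev18036884m.g had 100.0, 85.4, 94.6, 85.0 and 88.5 FPKM at 1 µM, against 2.38, 1.88, 4.15, 3.34 and 3.48 FPKM with vehicle, at 4.53 ± 0.15 on the log2 scale (limma adjusted p = 4.87e-09). Of the decreases, Xelaev18047264m.g had 0.464, 0.177, 0.706, 0.429 and 0.243 FPKM at 1 µM, against 52.7, 74.8, 25.7, 45.8 and 39.3 FPKM with vehicle. Its treated libraries held 10 to 32 recovered reads each and its vehicle libraries 542 to 2082, with a log2 fold change of -5.05 ± 0.23 (adjusted p = 4.26e-08 by limma). Xelaev18044817m.g had 0.775, 0.606, 0.758, 0.865 and 0.770 FPKM at 1 µM, against 50.7, 72.4, 29.3, 45.04 and 38.2 FPKM with vehicle, a log2 fold change of -4.72 ± 0.19 (adjusted p = 1.84e-08 by limma). In both of these the vehicle libraries were ordered alike, with replicate 2 highest and replicate 3 lowest. The file gives these identifiers no name, and 0 identifiers matched the RefSeq gene table of Xenopus_laevis_v10.1.

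The 10 nM libraries allow each level at 1 µM to be set beside that at the lower concentration. In 1 fit of all 15 libraries, 3226 of the 13321 gene models (24.2%) differed between 1 µM and 10 nM, 2234 (16.8%) higher and 992 (7.45%) lower at 1 µM. The genes below were named for their difference from vehicle, and this test uses the same 1 µM libraries, so it leans the same way and the values are set side by side as a description. For rdh10 the mean levels were 22.9 ± 3.48 FPKM with vehicle, 13.97 ± 2.13 at 10 nM and 5.36 ± 0.336 at 1 µM (SD, n = 5 each). The difference between 1 µM and 10 nM was -1.23 ± 0.11 (SE, limma adjusted p = 9.82e-07), and all 5 libraries at 10 nM lay between the other groups. The genes mycl and zfp36l1 followed the same steps. Levels of mycl were 9.90 ± 1.15, 5.27 ± 0.725 and 2.62 ± 0.774 FPKM in the same order, and those of zfp36l1 were 11.4 ± 1.09, 7.62 ± 1.02 and 4.35 ± 0.707 FPKM. Between the doses they differed by -0.81 ± 0.14 and -0.69 ± 0.10 (limma adjusted p = 0.000511 and 0.000172).

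Other genes had 10 nM levels near those with vehicle. The receptor gene chrnd stood at 7.81 ± 1.81 FPKM with vehicle, 6.87 ± 0.422 at 10 nM and 3.30 ± 0.705 at 1 µM, a difference between the doses of -0.89 ± 0.13 (limma adjusted p = 0.000135). The guidance receptor gene robo3 stood at 4.32 ± 0.518, 4.49 ± 0.860 and 7.70 ± 0.836 FPKM in that order, differing by 0.67 ± 0.11 between the doses (limma adjusted p = 0.000403). The channel gene kcnj2 had 1.77 ± 0.327, 1.70 ± 0.338 and 0.596 ± 0.0595 FPKM (dose difference -0.75 ± 0.10, limma adjusted p = 7.11e-05), and ldb3-like.1 had 2.46 ± 0.309, 2.11 ± 0.0766 and 1.04 ± 0.303 FPKM (-0.62 ± 0.10, limma adjusted p = 0.000246). The remodeller gene smarca5 was at 17.4 ± 1.55, 17.1 ± 0.934 and 11.4 ± 1.18 FPKM, with -0.55 ± 0.09 between the doses (limma adjusted p = 0.000219). The crest gene sox9 had 2.70 ± 0.396, 2.09 ± 0.631 and 5.86 ± 0.753 FPKM, with 1.17 ± 0.13 between the doses (limma adjusted p = 1.02e-05). Its mean at 10 nM lay below that with vehicle, opposite to the change at 1 µM, although the libraries of those 2 groups overlapped.

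A further set stood at like levels at both concentrations. For sumo3 the levels were 339 ± 48.3 FPKM with vehicle, 194 ± 26.9 at 10 nM and 187 ± 35.7 at 1 µM, and the doses differed by -0.07 ± 0.14 (limma adjusted p = 0.782). For srsf6 they were 19.0 ± 2.61, 11.2 ± 1.28 and 10.7 ± 0.772 FPKM, with -0.06 ± 0.10 between the doses (limma adjusted p = 0.744). The channel gene vdac2 had 7.92 ± 1.56, 12.7 ± 1.33 and 13.3 ± 0.920 FPKM, with 0.06 ± 0.11 (limma adjusted p = 0.740), and tomm20 had 1.12 ± 0.134, 1.95 ± 0.198 and 1.86 ± 0.0427 FPKM, with -0.04 ± 0.07 (limma adjusted p = 0.740). The light chain gene myl9 had 18.9 ± 2.36, 27.2 ± 1.61 and 27.7 ± 2.20 FPKM, with 0.02 ± 0.09 (limma adjusted p = 0.899). These dose differences did not pass, which does not show that the doses acted alike.

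**Figure D5:**
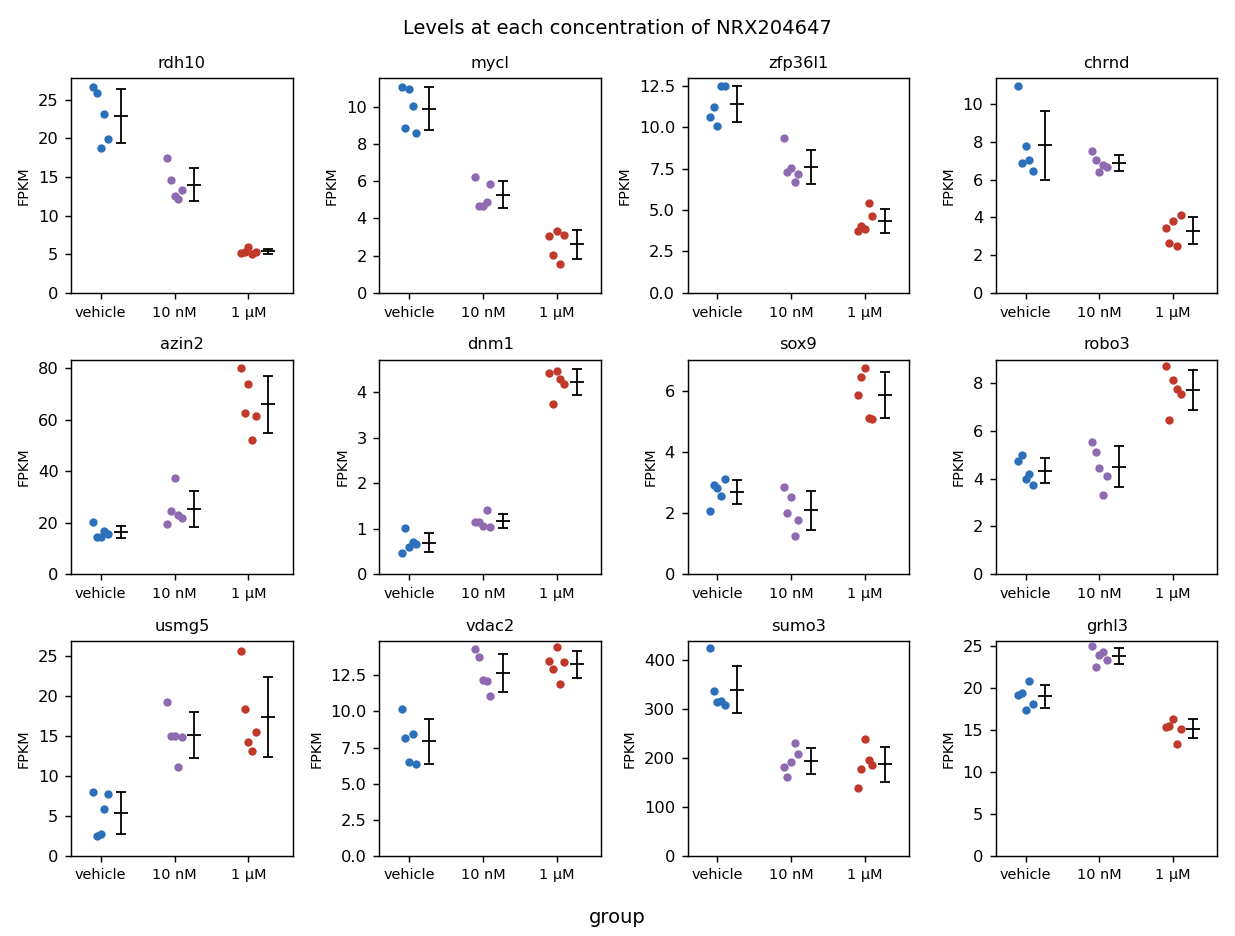
FPKM of 12 genes in the 5 libraries each of vehicle (blue), 10 nM (purple) and 1 µM (red), from low to high concentration on each panel, with bars for the mean ± SD and a separate linear axis from 0 for each gene. The levels of rdh10, mycl and zfp36l1 step down, chrnd, azin2, dnm1, sox9 and robo3 differ chiefly at 1 µM, usmg5, vdac2 and sumo3 are at like levels at both concentrations, and grhl3 is lowest at 1 µM and highest at 10 nM.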

How the data were processed

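The deposited table gave FPKM per gene model for 15 libraries, made by the authors with TopHat, Bowtie and Cufflinks per the submitters' processing notes. No source used here states their versions, the genome build or the annotation. All further steps used Python 3.11.15, pandas 2.3.3, R 4.3.3 and limma 3.58.1. Gene models at a mean FPKM of 1 or more over the 10 libraries were tested on log2(FPKM + 1), which understates changes of low genes, by limma with a variance trend and Benjamini-Hochberg adjustment over all of them. "Called" means an adjusted p under 0.05, and ± after a log2 fold change is its SE.

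Symbols stand only in the first 4488 of the 45099 rows, and placeholder symbols were not used. The 1 µM and 10 nM groups were compared in a fit of all 15 libraries. The lists match symbols, and members and lists were chosen with earlier results of these data known. Genes were named by a rule: the 20 largest increases and 20 largest decreases without overlap, all members of the retinoid, receptor, patterning, neural, crest, epidermal, muscle and mesendoderm lists, up to 4 called and 2 uncalled members of each other list, 2 unnamed gene models in each direction, and the 5 most abundant named genes. A further 16 genes were named after their values were seen, among them vdac2, tomm20, lactb2, enoph1, dlat, mier3, kmt2a, sin3b, smarca2-like, insr, dnm2 and slc7a5. These were added to the checks of outliers and signs. The text names more genes outside the rule than these 16, such as members or non-members given beside a list. They too were chosen with their values known, and those beyond the 16 were not part of these checks.

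Whole reads were recovered from the FPKM increments for 33858 of 34147 gene models (99.2%), within 0.03 reads, and for 98.2% of those tested. Recovered totals ran from 3129034 to 10524806 reads per library. These are upper bounds if an increment is a fraction of a read, and amplified reads are not independent molecules. Of 20 library pairs within a group, 0 were identical, and counts within a pair differed beyond counting error, with chi-square over degrees of freedom of 6.28 to 20.3. Alternatives were other pseudocounts, filters, scalings, a length correction, library weights, a robust prior, a replicate block, voom on the recovered reads and leaving out libraries.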

Additional observations from a re-analysis of the deposited data

Results flagged for a closer look

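Of 238 groups of 5 libraries, 2 for each of 119 gene models, 11 held a library whose gap to its nearest neighbour was over 0.71 of the group's range, where chance flags about 1 in 20. Treated replicate 4 stood alone for nr2f6, at 4.66 FPKM beside 3.88 to 4.10 in the other 1 µM libraries, and for ubap2-like, at 10.2 FPKM beside 8.85 to 9.12. Treated replicate 1 was high for ddx6, at 11.8 FPKM beside 10.8 to 11.0. For slc27a4, treated replicate 2 was low, at 2.14 FPKM beside 2.91 to 3.10.

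In the vehicle group, replicate 2 was high for akr1c2 (2.67 FPKM, the others 1.02 to 1.41) and cops6-like (5.19 FPKM, the others 2.05 to 2.63) and low for nol6 (6.74 FPKM, the others 7.84 to 8.20). Vehicle replicate 1 was high for sumo3, at 423 FPKM beside 307 to 336, and low for gadd45gip1, at 0.789 FPKM beside 1.5 to 1.76. Vehicle replicate 4 was high for ntpcr, at 1.28 FPKM beside 0.492 to 0.657, and vehicle replicate 3 for zswim6, at 3.33 FPKM beside 2.94 to 3.04. Apart from ddx6, which was not called with or without that library, each of these genes kept its call without the library that stood apart.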

How the results depend on the processing

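Of the 152 calls with a symbol, 84 held in each of the 25 settings that tested the gene. A setting that left a gene out, such as a stricter filter, was not counted against it. Leaving out single libraries gave 5335 to 6054 calls over all gene models, and voom on the recovered reads gave 6560 (3384 higher and 3176 lower). Without vehicle replicates 1, 2 and 3, the shallow libraries, 4844 gene models were called. A filter at a mean of 5 FPKM left 2286 calls, 574 with a change of at least 1 and 49 with a symbol. Changes of at least 1 were called for 2147 gene models with a pseudocount of 0.1, 324 with a pseudocount of 5 and 2145 with voom, and 98 symbols were called at an adjusted p under 0.01. The depth difference ran from 0.248 to 0.3797 as single libraries were left out.

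No pairing by replicate number was seen, as deviations of same-numbered libraries correlated at -0.104 to 0.0485 and 0 of 5 did so best with their own number. Such correlations of deviations from group means cannot show that same-numbered libraries shared no handling. With the replicate block 5345 gene models and 134 symbols were called, and grhl3, igf2bp3 and sptan1 missed the threshold (limma adjusted p = 0.0582, 0.115 and 0.0812).

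Among the 119 gene models taken through the settings, the signs of 15 near 0 depended on the setting, and the cause was not tested. Other genes named in the text were not part of this count. Median-of-ratios scaling gave -0.001043 for nop56, -0.009444 for kif1c and -0.03656 for myo9b. Quantile normalization gave -0.04097 for igf2bp3, -0.002852 for prkci, -0.1273 for nop56, -0.04328 for dlg5, -0.03137 for kif1c, -0.02449 for slc25a25-like and -0.06448 for myo9b. The common total gave -0.03002 for igf2bp3, -0.05792 for prkci, -0.05569 for kdm5c, -0.04336 for smarca2-like, -0.1285 for nop56, -0.1073 for dlg5, -0.1078 for kif1c, -0.07706 for slc25a25-like and -0.1392 for myo9b. Voom gave -0.02797 for kif1c, -0.1454 for slc25a25-like and -0.02568 for myo9b. For slc25a25-like the length correction gave -0.2353 and library weights -0.06929, which gave 0.01392 for slc22a31-like. A pseudocount of 5 gave 0.003525 for ndufa13. Without the shallow libraries slc25a25-like had -0.04365, slc22a31-like 0.06014 and cdk9 0.06456. Leaving out single libraries gave -0.03032 to 0.1844 for slc25a25-like, -0.002492 to 0.09023 for myo9b, -0.0965 to 0.1215 for ndufa13, -0.0379 to 0.01703 for slc22a31-like, -0.1581 to 0.007427 for irf2bp2, -0.2798 to 0.001749 for cdk9, -0.09224 to 0.01491 for insr and -0.1296 to 0.0768 for sin3b.

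Depth limits genes with under about 10 recovered reads in a vehicle library, such as ak3 and dpm2.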

Other observations

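A pair of called genes outside the lists is given here, chosen after their values were seen. The gene vldlr encodes a lipoprotein receptor that also binds reelin, a guide of neuron migration. It measured 2.42, 1.79, 2.12, 2.11 and 2.42 FPKM at 1 µM, against 1.03, 0.717, 0.600, 0.532 and 0.732 FPKM with vehicle, without overlap (log2 fold change 0.88 ± 0.10, limma adjusted p = 4.00e-05). The gene glud1 encodes glutamate dehydrogenase of the mitochondrial matrix. It had 1.82, 2.13, 2.22, 1.63 and 2.47 FPKM at 1 µM, against 1.07, 0.682, 0.914, 0.637 and 1.02 FPKM with vehicle, also without overlap (log2 fold change 0.71 ± 0.11, limma adjusted p = 0.000301).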
